A study of Mus musculus with 18 samples.

Results

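The ADAMTS proteases examined here are the 10 genes Adamts1, Adamts4, Adamts5, Adamts7, Adamts8, Adamts9, Adamts10, Adamts12, Adamts15 and Adamts16. They were taken by name, by a rule that uses no measured value, and all 10 were found among the 54281 genes of the count table and tested. The RNA came from whole descending aortas of 18 male C57BL/6 mice, 6 in each of 3 groups, and each mouse is a separate animal. HGPS mice carried the LMNAG609G allele, a knock-in at the endogenous Lmna gene that produces progerin in all tissues that express it (homozygous by the description of the study), and were 64 to 75 d old by their labels. The wild-type (WT) mice were called 2-mo WT (62 d, apart from 1 mouse of 95 d) and 24-mo WT (609 to 762 d). The labels give no treatment for any group.

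ADAMTS enzymes are secreted metalloproteases that act in the extracellular matrix. A prodomain is removed by furin-like proteases, a catalytic domain with a zinc ion cuts the substrate, and thrombospondin repeats in the rest of the protein help to place it. In arteries the best known substrates are versican and aggrecan, large proteoglycans that hold water between the elastic lamellae, but some family members cut cartilage oligomeric matrix protein, act on fibrillin microfibrils or trim procollagens.

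The site that gives these proteins their enzymatic activity is shown because it is what the 10 genes share. Each line gives the 36 coding bases of the zinc-binding site, 5′ to 3′ on the coding strand, from GENCODE transcripts on GRCm38, with the codons of the 3 zinc-binding histidines in capitals. In the first set of 5, Adamts1, Adamts4, Adamts5, Adamts8 and Adamts15, an exon ends after base 10 of the site.
Adamts1: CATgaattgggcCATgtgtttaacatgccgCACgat
Adamts4: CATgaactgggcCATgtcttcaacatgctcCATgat
Adamts5: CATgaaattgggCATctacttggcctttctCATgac
Adamts8: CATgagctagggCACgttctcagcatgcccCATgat
Adamts15: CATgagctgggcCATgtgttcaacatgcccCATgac
In the second set of 5, the exon ends after base 17.
Adamts7: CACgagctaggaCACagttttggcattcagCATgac
Adamts9: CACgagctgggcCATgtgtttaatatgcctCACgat
Adamts10: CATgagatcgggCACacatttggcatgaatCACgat
Adamts12: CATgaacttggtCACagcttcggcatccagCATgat
Adamts16: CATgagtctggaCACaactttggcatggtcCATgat
Over the 45 pairs, the sites shared 20 to 32 of 36 bases and 6 to 12 of the 12 encoded residues. Adamts1, Adamts9 and Adamts15 encode the same 12 residues, and so do Adamts7 and Adamts12. In Adamts15, on the minus strand of chromosome 9, the site lies at chr9:30911681-30911690 in exon 2 and chr9:30911252-30911277 in exon 3. In Adamts12, on the plus strand of chromosome 15, it lies at chr15:11241529-11241545 in exon 7 and chr15:11255549-11255567 in exon 8. All of these positions are coding exon sequence. The 2 genes whose expression passed the cut-offs used below, Adamts15 and Adamts12, come from different sets.

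The deposited values were estimated counts per gene, and the totals were 12413229 to 30844775 per mouse, with medians of 22752394 in HGPS, 18031579 in 2-mo WT and 17964166 in 24-mo WT. A gene was tested if it had at least 10 counts in at least 6 mice, which kept 15210 genes. Of the 10 ADAMTS genes, 9 had 10 counts or more in every mouse. Adamts16 reached 10 counts in 7 mice only (4 HGPS, 2 2-mo WT, 1 24-mo WT), so it would not have been tested without the HGPS mice. Expression is given as CPM, the usual depth-scaled count, after TMM scaling of the library sizes. Groups were compared by the quasi-likelihood F-test of edgeR, and a gene was said to rise or fall if it changed by at least 1.5-fold with an adjusted p under 0.001. The label of the tissue was checked against markers: all 8 smooth muscle markers were detected in every mouse, with summed levels of 29525 to 38055 CPM in 2-mo WT, 19696 to 27447 CPM in HGPS and 30521 to 34757 CPM in 24-mo WT. Lmna itself had 341 to 486 CPM in 2-mo WT and 445 to 653 CPM in HGPS, but a count per gene does not see the altered splicing of the knock-in allele and so does not check the genotype.

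Per unit of transcript length, 1 gene stood far above the others. Adamts1, a proteoglycan-cutting enzyme that responds quickly to many stimuli, had a level of 90.1 ± 34.6 CPM per kilobase of merged exons (RPKM; SD, n = 6) in 2-mo WT, 86.9 ± 25.6 in HGPS and 72.1 ± 19.9 in 24-mo WT. That was 66.1%, 67.6% and 65.8% of the summed RPKM of the 10 genes by merged exons, and these shares depend on the length used. In 2-mo WT, Adamts8 (12.1 ± 2.29 RPKM), Adamts15 (10.8 ± 2.14 RPKM) and Adamts5 (9.05 ± 0.655 RPKM) followed, each overlapping with its neighbour in the order. Adamts10 (7.57 ± 0.777 RPKM) came next, below all 6 values of Adamts5. Adamts9 (3.06 ± 0.317 RPKM) and Adamts12 (2.57 ± 0.610 RPKM) overlapped with each other. The lowest were Adamts4 (0.582 ± 0.127 RPKM), Adamts7 (0.385 ± 0.0747 RPKM) and Adamts16 (0.0811 ± 0.0421 RPKM), of which Adamts4 and Adamts7 overlapped.

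By the length of merged exons, the order changed at a single place between the groups. In HGPS, Adamts15 (5.91 ± 1.16 RPKM) stood below Adamts5 (8.67 ± 0.558 RPKM) with no overlap, and it overlapped with Adamts10 (5.84 ± 0.979 RPKM). In 24-mo WT it also ranked below Adamts5, but the ranges overlapped (7.93 ± 1.23 and 9.00 ± 1.58 RPKM). This order depended on the length. With the longest coding transcript as the length, the mean of Adamts15 was above that of Adamts5 in each group, at 18.8 ± 3.73 against 9.05 ± 0.655 RPKM in 2-mo WT, 10.3 ± 2.03 against 8.67 ± 0.558 RPKM in HGPS and 13.9 ± 2.16 against 9.00 ± 1.58 RPKM in 24-mo WT. After Adamts1 the order was then Adamts15, Adamts10, Adamts8 and Adamts5 in 2-mo WT, Adamts8, Adamts10, Adamts15 and Adamts5 in HGPS, and Adamts8, Adamts15, Adamts10 and Adamts5 in 24-mo WT. The merged exons of Adamts10 are 8254 bases long and its longest coding transcript 4043 bases. The first place and the last 5 places did not depend on the length in any group.

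**Figure D1:**
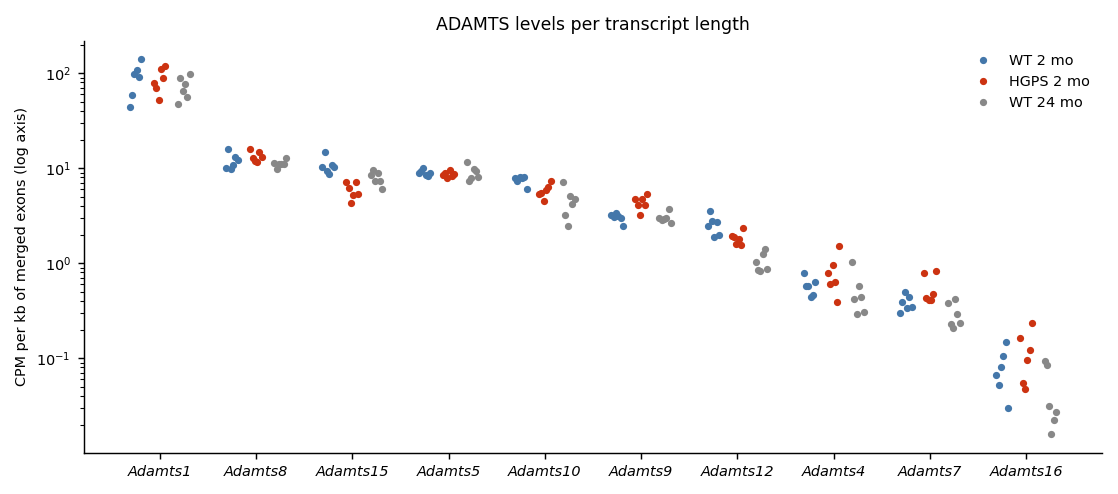
Level of each ADAMTS gene as CPM per kilobase of merged exons (y, log axis) in each mouse (points), for 2-mo WT (blue), HGPS (red) and 24-mo WT (grey). Adamts1 lies above the other 9 genes in all 18 mice, and Adamts16 lies below them.

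The first comparison, HGPS against 2-mo WT, asks which genes differ in the progeria aorta at an early age. Adamts15 fell, and it was the sole ADAMTS gene of the 10 past the cut-offs, so 1 fell, 0 rose and 9 did not pass. Among all 15210 genes, 9.50% passed, 5.27% higher and 4.23% lower, so a share of 1 in 10 is near the background. The ranges of HGPS and 2-mo WT did not overlap for Adamts15 alone, whereas 21.9% of all tested genes had ranges that did not overlap. The median log2 fold change of the 10 was 0.05, Adamts16 included, next to 0.003 over all tested genes.

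Adamts15, an enzyme that cuts versican and aggrecan, had 90.9, 107 and 154 CPM in the lowest, median and highest 2-mo WT mouse. In HGPS the corresponding values were 44.3, 59.7 and 74.8 CPM. Every HGPS mouse was below every 2-mo WT mouse, and the means were 61.3 ± 12 and 112 ± 22.1 CPM (SD, n = 6). The log2 fold change was -0.87 (SE 0.14, adjusted p = 7.72e-05 by edgeR), a fold of 0.549. Leaving out each mouse in turn gave -0.93 to -0.76, with adjusted p from 7.90e-05 to 0.000296. The call did not survive a test against 1.5-fold itself (adjusted p = 0.101; 0.940% of all genes passed), or a fit to the 3 HGPS mice whose sample numbers adjoin those of the 2-mo WT mice (log2 fold change -0.86, adjusted p = 0.00247; 3.68% passed).

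Several cell markers differed between the same groups. Summed smooth muscle markers were lower in HGPS, and 3 of 8 fell: Myh11 (log2 fold change -1.17), Smtn (-0.84) and Acta2 (-0.60). The set did not move together, with Lmod1 at -0.52, Cnn1 at -0.41, Des at -0.17, Tagln at -0.005 and Myocd at 0.09. The summed fibroblast markers were 5854 to 9952 CPM in HGPS and 8512 to 11068 CPM in 2-mo WT (1 of 8 fell, and Lum was at 0.20). Macrophage markers were higher (7 of 8 rose; 907 to 1459 against 481 to 727 CPM), and so were brown fat markers (3 of 10 rose; 477 to 1769 against 110 to 624 CPM). No marker of these 4 sets was at 0 in all mice. Cell cycle markers were higher too (5 of 8 rose; 36.7 to 63.7 against 10.1 to 18.8 CPM). Summed nerve markers were at 427 to 564 CPM in HGPS and 649 to 761 CPM in 2-mo WT (1 of 6 tested fell), and summed white fat markers at 1440 to 3942 and 1087 to 1873 CPM (1 of 8 rose). With smooth muscle and fibroblast scores in the fit, the log2 fold change of Adamts15 was -0.66 (SE 0.32, adjusted p = 0.395), and with brown fat and skeletal muscle scores it was -1.01 (SE 0.21, adjusted p = 0.00288). Without the 4 HGPS libraries whose brown fat markers exceed those of every WT library, it was -0.80 (SE 0.19, adjusted p = 0.0129). Calls were lost across all genes in these fits, with 0.00657%, 1.83% and 0.861% of the tested genes past the cut-offs in the same order, so the loss is not particular to Adamts15. In RNA of a whole vessel, fewer cells of a type and less RNA per cell cannot be told apart, and the part of the cell mixture in the fall of Adamts15 was not tested beyond these fits.

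Adamts9, a versican-cutting enzyme, came closest to the cut-offs among the rest. It had 37.4, 47.0 and 51.5 CPM in the lowest, median and highest 2-mo WT mouse, and 49, 66.6 and 80.3 CPM in HGPS. A single HGPS mouse, replicate 3, lay within the range of 2-mo WT. The log2 fold change was 0.52 (SE 0.10, adjusted p = 0.000602), which is 1.43-fold and short of the 1.5-fold minimum. Without that mouse it was 0.59 (adjusted p = 0.000101), past both cut-offs.

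The other proteoglycan-cutting enzymes did not pass, some with narrow intervals and some with wide ones. Adamts5, the main aggrecanase of mouse cartilage, had 89.1, 97.0 and 109 CPM in the lowest, median and highest 2-mo WT mouse and 85.6, 93.5 and 103 CPM in HGPS. Its log2 fold change was -0.06 (SE 0.09, adjusted p = 0.621), with a 95% interval of -0.26 to 0.13. Adamts8 gave 0.15 (SE 0.11, interval -0.08 to 0.37). Adamts1 spread 3.15-fold within 2-mo WT (235 to 741 CPM) and 2.32-fold within HGPS (276 to 640 CPM), so its difference of -0.05 on the log2 scale has a wide interval, -0.58 to 0.48. Adamts4, which cuts the same substrates and had 26 to 144 counts per mouse in these groups, gave 0.47 (interval -0.20 to 1.13).

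Adamts7 and Adamts12 share a mucin-like region and act on cartilage oligomeric matrix protein. Adamts12 was at 20.5, 28.4 and 39.0 CPM in the lowest, median and highest 2-mo WT mouse and at 17.2, 20.01 and 26 CPM in HGPS, with overlapping ranges. Its log2 fold change of -0.47 (SE 0.16, adjusted p = 0.0209) did not pass. Adamts7 had 1.88 to 3.14 CPM in 2-mo WT and 2.55 to 5.18 CPM in HGPS (log2 fold change 0.52, SE 0.23, adjusted p = 0.0745). Adamts10, a weak protease that binds fibrillin, gave -0.37 (SE 0.18, adjusted p = 0.0957). Adamts16, with 4 to 32 counts per mouse in these groups, gave 0.56 (SE 0.46, adjusted p = 0.347). It passed the filter only through the HGPS mice.

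**Figure D2:**
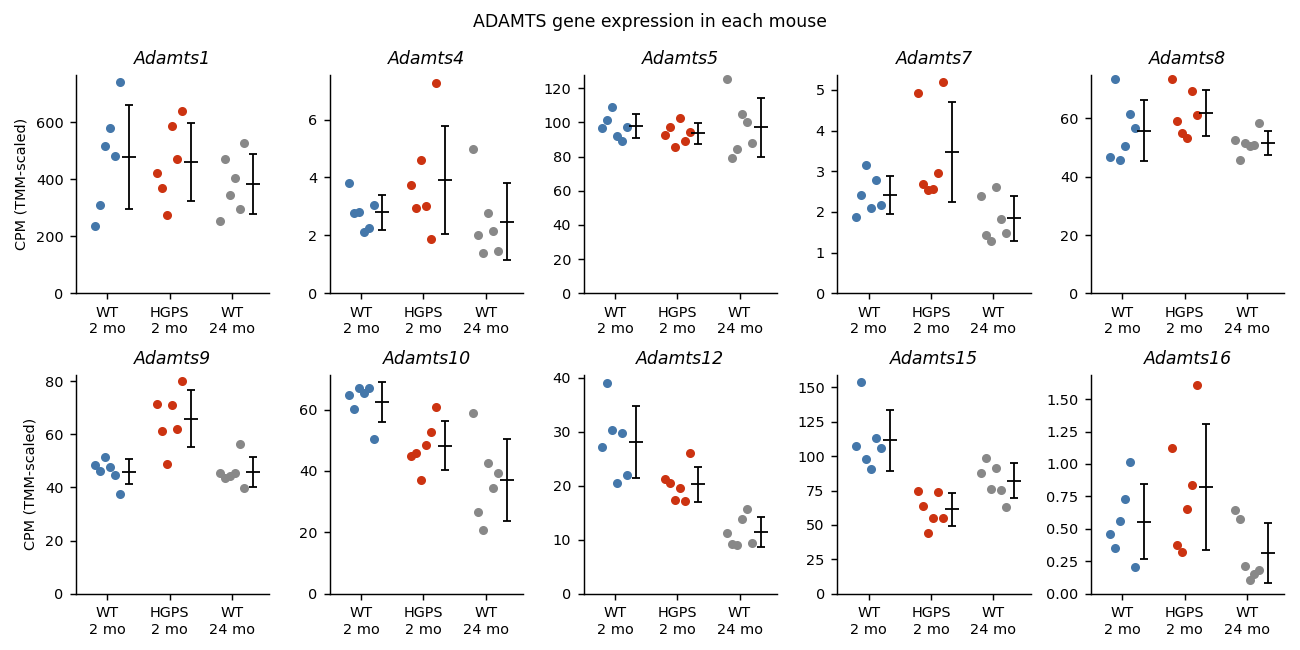
Expression of the 10 ADAMTS genes in CPM (y, each panel from 0) in each of the 6 mice of a group (points), with the mean and SD (bars). Adamts15 is below 2-mo WT in every HGPS mouse (44.3 to 74.8 against 90.9 to 154 CPM), and Adamts12 is below both 2-mo groups in every 24-mo WT mouse.

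The second comparison, 24-mo WT against the same 2-mo WT mice, asks what differs with age. Sample numbers run from 24 to 34 in 24-mo WT and from 41 to 46 in 2-mo WT. Age therefore cannot be told apart from the run of sample numbers, whose meaning the labels do not give. Adamts12 fell, 0 genes rose and 9 did not pass. Among all tested genes 2.00% passed, 1.28% higher and 0.717% lower. Adamts12 was also the only gene of the 10 whose ranges did not overlap, as for 6.28% of all tested genes. The median log2 fold change of the 10 was -0.35, next to 0.008 over all tested genes.

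Adamts12 had 8.96, 10.3 and 15.6 CPM in the lowest, median and highest 24-mo WT mouse, against the 20.5 to 39.0 CPM of 2-mo WT given above. The means were 11.4 ± 2.77 and 28.1 ± 6.67 CPM (SD, n = 6). The log2 fold change was -1.30 (SE 0.16, adjusted p = 2.28e-05 by edgeR), a fold of 0.406, and it stayed between -1.41 and -1.18 as each mouse was left out. The test against 1.5-fold gave an adjusted p of 0.00365, above the threshold of 0.001. Summed fibroblast markers were lower as well, with 5542 to 8002 CPM in 24-mo WT against 8512 to 11068 CPM in 2-mo WT (2 of 8 fell). None of the 8 was at 0, and they did not move together. Their log2 fold changes were -0.95 for Col1a2, -0.92 for Col1a1, -0.73 for Pi16 and -0.70 for Dpt. Pdgfra gave -0.12 and Clec3b -0.09, while Lum (0.16) and Dcn (0.20) were higher on average. With smooth muscle and fibroblast scores in the fit the log2 fold change of Adamts12 was -0.71 (SE 0.24, adjusted p = 0.103). With brown fat and skeletal muscle scores it was -1.27 (SE 0.22, adjusted p = 0.00199). Over all tested genes 0.256% and 0.723% passed in these fits. The part of the fibroblast markers in the fall of Adamts12 was not tested beyond these fits.

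Adamts10 and Adamts15 were lower on average at 24 mo without passing. Adamts10 had 50.5, 65.1 and 67.1 CPM in the lowest, median and highest 2-mo WT mouse and 20.6, 36.9 and 58.9 CPM in 24-mo WT. The 24-mo WT mice spread 2.86-fold, and replicate 1 alone lay within the range of 2-mo WT. The log2 fold change was -0.75 (SE 0.18, adjusted p = 0.00837). It passed the cut-offs without that mouse (-0.93, adjusted p = 0.000486) and in DESeq2 (-0.75, adjusted p = 0.000496). Adamts15 had 63.3, 81.8 and 98.4 CPM in 24-mo WT, and its difference from 2-mo WT was -0.44 (SE 0.14, adjusted p = 0.0436).

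For the remaining 7, Adamts9 and Adamts5 had the narrowest intervals. Adamts9 was at 45.8 ± 5.63 CPM in 24-mo WT and 46 ± 4.77 CPM in 2-mo WT, a log2 fold change of -0.003 (interval -0.23 to 0.22). Adamts5 was at 97.1 ± 17.1 and 97.6 ± 7.07 CPM (interval -0.20 to 0.19). The log2 fold changes of Adamts8, Adamts1, Adamts7 and Adamts4 were -0.11 (SE 0.11), -0.32 (SE 0.25), -0.38 (SE 0.24) and -0.19 (SE 0.32). Adamts16, at 2 to 11 counts per mouse in 24-mo WT, gave -0.83 (SE 0.51, adjusted p = 0.336).

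The third comparison sets HGPS at 2 mo against WT at 24 mo, to ask how progeria at an early age differs from old age. It uses the same mice again, so it is not independent of the other comparisons. Genotype and age differ together between these groups, so they cannot be told apart here. Adamts12 rose in HGPS relative to 24-mo WT, 0 genes fell and 9 did not pass. Over all tested genes 12.1% passed, 6.02% higher and 6.11% lower, and 22.2% had ranges that did not overlap, as Adamts12 alone did here among the 10. The median log2 fold change of the 10 was 0.45, next to -0.010 over all tested genes. It includes Adamts16, which passed the filter only through the HGPS mice.

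Adamts12 was at 20.3 ± 3.23 CPM in HGPS and 11.4 ± 2.77 CPM in 24-mo WT (SD, n = 6), and its lowest HGPS mouse (17.2 CPM) was above the highest 24-mo WT mouse (15.6 CPM). The log2 fold change was 0.83 (SE 0.16, adjusted p = 0.000381 by edgeR), or 1.77-fold. The call was lost when HGPS replicate 1 or 6, or 24-mo WT replicate 2, 3 or 6, was left out (log2 fold change 0.74 to 0.81, adjusted p from 0.00101 to 0.00140). It was also lost with the 3 HGPS mice whose sample numbers adjoin those of 24-mo WT (0.78, adjusted p = 0.00607), without the 4 HGPS libraries highest in brown fat markers (0.68, adjusted p = 0.0376), with smooth muscle and fibroblast scores (0.15, SE 0.35, adjusted p = 0.883) and with brown fat and skeletal muscle scores (0.52, SE 0.25, adjusted p = 0.139). Over all tested genes 7.27%, 3.23%, 0.0329% and 2.69% passed in these fits. The test against 1.5-fold gave an adjusted p of 0.196 (2.31% of all genes passed), and Adamts12 also missed the stricter cut-offs of 0.8 on the log2 scale and 0.0001 for the adjusted p (5.36% of all genes passed).

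Adamts7 and Adamts9 were higher in HGPS than in 24-mo WT on average, both outside the cut-offs. Adamts7 was at 2.55, 2.83 and 5.18 CPM in the lowest, median and highest HGPS mouse and at 1.30, 1.66 and 2.62 CPM in 24-mo WT, with overlapping ranges. Its log2 fold change was 0.90 (SE 0.23, adjusted p = 0.00360), and DESeq2 put it past the cut-offs (0.91, adjusted p = 0.000832). Adamts9 had 39.9, 44.7 and 56.6 CPM in 24-mo WT, below the HGPS range but for the mouse at 56.6 CPM. Its log2 fold change was 0.52 (SE 0.10, adjusted p = 0.000445), or 1.44-fold, and it passed without HGPS replicate 3 or without 24-mo WT replicate 5 (0.59 in both, adjusted p = 6.31e-05 and 0.000153). Adamts16 gave 1.39 (SE 0.49) on few counts, but it passed the filter only through the HGPS mice. No weight is put on that difference. Adamts15 was lower in HGPS, with a log2 fold change of -0.42 (SE 0.14, adjusted p = 0.0173). The log2 fold changes of the other 5 were 0.66 (SE 0.31) for Adamts4, 0.38 (SE 0.18) for Adamts10, 0.27 (SE 0.25) for Adamts1, 0.26 (SE 0.11) for Adamts8 and -0.05 (SE 0.09) for Adamts5, with adjusted p from 0.0511 to 0.651.

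**Figure D3:**
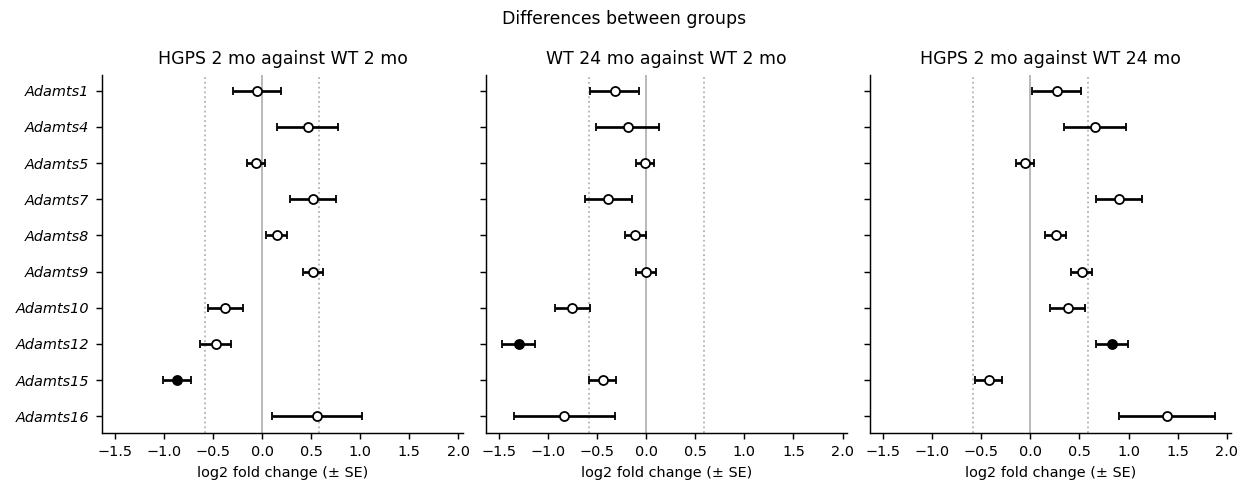
Log2 fold change (x) with its standard error (bars) of each ADAMTS gene in the 3 comparisons, with dotted lines at 1.5-fold and filled points for genes past both cut-offs. Adamts15 passed at -0.87 in HGPS against 2-mo WT, and Adamts12 at -1.30 in 24-mo WT against 2-mo WT and at 0.83 in HGPS against 24-mo WT.

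Adamts15 and Adamts8 are neighbours on chromosome 9, at chr9:30899155-30922452 on the minus strand and chr9:30942562-30963838 on the plus strand, with their starts facing each other across 20109 bases. Their expression was compared within each mouse, as log2 CPM of Adamts8 minus log2 CPM of Adamts15, and the pair was chosen after its values were seen, so no test is given. The difference was -0.998 ± 0.140 (SD, n = 6) in 2-mo WT, 0.03 ± 0.17 in HGPS and -0.66 ± 0.33 in 24-mo WT. All 6 HGPS mice (-0.12 to 0.31) were above all 6 2-mo WT mice (-1.20 to -0.85).

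In the second pair of neighbours, likewise described with no test, the ranges of the 3 groups overlapped. Adamts5 and Adamts1 lie on the minus strand of chromosome 16, at chr16:85856173-85901828 and chr16:85793827-85803113, with 53059 bases between them. Log2 CPM of Adamts5 minus that of Adamts1 was -2.19 ± 0.63 in 2-mo WT, -2.25 ± 0.40 in HGPS and -1.95 ± 0.61 in 24-mo WT. The wide spread of Adamts1 limits what 6 mice can show.

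**Figure D4:**
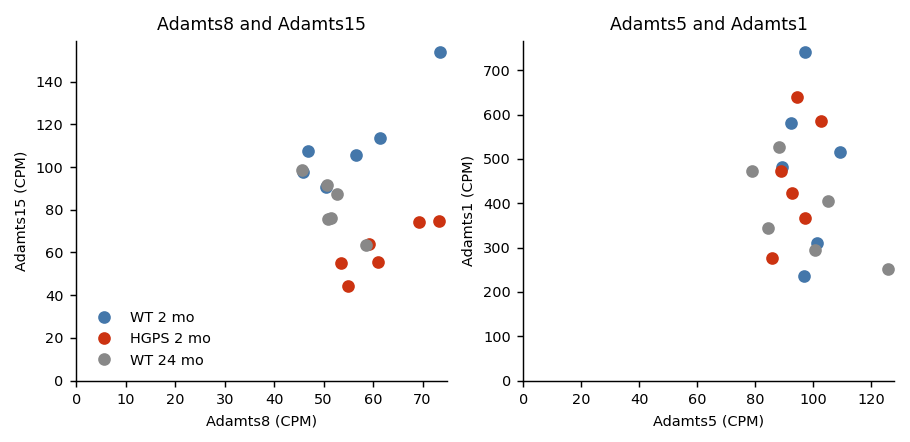
CPM of neighbouring gene pairs in each mouse (points; 2-mo WT blue, HGPS red, 24-mo WT grey), with Adamts8 (x) against Adamts15 (y) on the left and Adamts5 (x) against Adamts1 (y) on the right. HGPS mice lie below 2-mo WT mice in Adamts15 (44.3 to 74.8 against 90.9 to 154 CPM) over a similar range of Adamts8 (53.4 to 73.4 against 45.8 to 73.6 CPM).

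The genes whose log2 CPM over the 18 mice was most like that of Adamts15, in a search of 10707 genes that averaged 100 counts or more, were Scara5 (Pearson r = 0.88), a ferritin receptor of stromal cells, Gja6 (r = 0.87), a connexin, and Col6a6 (r = 0.85), a collagen VI chain. Those values include the shift between groups, and with each group centred on its own mean the r values were 0.63, 0.48 and 0.49. Scara5 went from 157 ± 10.6 CPM in 2-mo WT to 81.1 ± 8.70 CPM in HGPS and 128 ± 21.6 CPM in 24-mo WT. For Adamts12 the most alike were Col3a1 (r = 0.94), the chain of collagen III, Bche (r = 0.92), butyrylcholinesterase, and Adamts2 (r = 0.92), with r values of 0.69, 0.52 and 0.53 after centring. Col3a1 was at 7502 ± 1040 CPM in 2-mo WT, 5747 ± 1491 CPM in HGPS and 2375 ± 344 CPM in 24-mo WT. These are descriptions over 18 libraries that share their groups, depth and tissue.

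Other ADAMTS proteases were read beside the 10. Of 9, 5 were tested, and in HGPS against 2-mo WT 0 passed by edgeR (3 had an unadjusted p under 0.05, and DESeq2 gave 0). At 24 mo 1 fell, and in HGPS against 24-mo WT 2 rose. Their medians were -0.30, -0.49 and 0.66 on the log2 scale in the 3 comparisons. Over all tested genes 9.50%, 2.00% and 12.1% passed in these comparisons. Adamts2, a procollagen N-proteinase, fell at 24 mo from 406 ± 23.3 to 221 ± 27.8 CPM (log2 fold change -0.88, SE 0.09, adjusted p = 8.86e-07) and was higher in HGPS (349 ± 40.5 CPM) than in 24-mo WT (0.66, adjusted p = 4.78e-06). Adamts3, which also trims procollagens, was at 4.15 ± 0.604 CPM in HGPS and 2.03 ± 0.498 CPM in 24-mo WT (1.03, SE 0.17, adjusted p = 8.57e-05). Adamts13, Adamts18, Adamts19 and Adamts20 had too few counts to test, with 0 to 49 counts in the 6 mice of a group together.

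The ADAMTS-like proteins have the thrombospondin repeats without the protease domain. Of 7, all tested, 2 fell in HGPS against 2-mo WT: Thsd4, which binds fibrillin-1, from 643 ± 52.2 to 372 ± 37.7 CPM (log2 fold change -0.79, SE 0.08, adjusted p = 7.50e-07), and Adamtsl1 from 15.5 ± 3.56 to 9.02 ± 1.06 CPM (-0.77, adjusted p = 0.000558). At 24 mo 1 fell, Adamtsl2, from 27.3 ± 6.26 to 8.75 ± 2.25 CPM (-1.65, SE 0.18, adjusted p = 3.93e-06). In HGPS against 24-mo WT, Adamtsl2 rose by 2.20 on the log2 scale, to 40.1 ± 8.5 CPM, and Adamtsl1 (-0.83), Thsd4 (-0.65) and Adamtsl3 (-0.60) fell. The medians of the 7 were -0.48, 0.05 and -0.53 in the 3 comparisons, where 9.50%, 2.00% and 12.1% of all tested genes passed.

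Of 14 substrates tested, 2 rose at 24 mo, and 3 fell in HGPS relative to 24-mo WT. In HGPS against 2-mo WT 0 passed by edgeR, with 9 at an unadjusted p under 0.05 and 2 past the cut-offs in DESeq2. By edgeR, 8 had an adjusted p under 0.05 there. On the log2 scale, Thbs1 (1.41), cartilage oligomeric matrix protein (Comp, 0.80), aggrecan (Acan, 0.65) and Sdc4 (0.42) were higher. Omd (-0.64), Dcn (-0.49), Fmod (-0.44) and Cspg4 (-0.38) were lower. The median log2 fold changes of the substrates were 0.07, 0.17 and 0.02 in the order of the comparisons, where all tested genes had 0.003, 0.008 and -0.010. Over all tested genes 9.50%, 2.00% and 12.1% passed in that order. Versican (Vcan) had 123, 145 and 164 CPM in the lowest, median and highest 2-mo WT mouse, 104, 126 and 195 CPM in HGPS, and 214, 260 and 310 CPM in 24-mo WT. Every 24-mo WT mouse was above every mouse of both 2-mo groups. Vcan rose at 24 mo (log2 fold change 0.84, SE 0.13, adjusted p = 0.000211) and was lower in HGPS than in 24-mo WT (-0.90, SE 0.13, adjusted p = 1.89e-05). Its difference in HGPS against 2-mo WT was -0.06 (interval -0.34 to 0.22). Fibronectin (Fn1) gave 0.84 at 24 mo (adjusted p = 0.000355) and -0.68 in HGPS against 24-mo WT, and decorin (Dcn) gave -0.69 in the latter.

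In the list read for inhibition and clearance, 7 genes were tested. Whether the product of each acts on an ADAMTS enzyme was not tested. Timp3, the tissue inhibitor that blocks ADAMTS4 and ADAMTS5, had 1399 ± 128 CPM in 2-mo WT, 1347 ± 95.6 CPM in HGPS and 1511 ± 78.9 CPM in 24-mo WT, with a log2 fold change of -0.05 (interval -0.20 to 0.09) in HGPS against 2-mo WT and 0.11 (interval -0.03 to 0.25) at 24 mo. Lrp1, the receptor that takes up several ADAMTS enzymes, gave -0.20 (SE 0.19) and 0.30 (SE 0.19). Timp1 rose in HGPS from 16.3 ± 0.680 to 52.6 ± 15.1 CPM (1.68, SE 0.17, adjusted p = 5.40e-07) and Timp4 from 8.64 ± 1.43 to 16.1 ± 2.86 CPM (0.90, SE 0.15, adjusted p = 8.25e-05). At 24 mo 0 of the 7 passed by edgeR (2 at an unadjusted p under 0.05, 1 past the cut-offs in DESeq2), and in HGPS against 24-mo WT Timp1 rose by 1.67. The medians of the 7 were -0.05, 0.06 and -0.12 in the 3 comparisons, where 9.50%, 2.00% and 12.1% of all tested genes passed.

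The list read for activating proteases had 6 genes: Furin, Pcsk5, Pcsk6, Pcsk7, Mmp17 and Htra1. Whether each of them activates an ADAMTS enzyme was not tested. These 6 gave 0 calls in each of the 3 comparisons by edgeR and by DESeq2. At an unadjusted p under 0.05 there were 3, 3 and 4, and the medians were -0.05, -0.15 and -0.01. Of 8 tested genes for cytokines and receptors known to induce ADAMTS genes, the oncostatin M receptor Osmr rose in HGPS (0.69, SE 0.11, adjusted p = 5.87e-05) and at 24 mo (0.68, SE 0.11, adjusted p = 0.000269), both against 46.5 ± 4.94 CPM in 2-mo WT. No gene of that list passed in HGPS against 24-mo WT by edgeR or DESeq2 (0 of 8, with 3 at an unadjusted p under 0.05). The medians of the list were 0.49, 0.48 and -0.08. Over all tested genes 9.50%, 2.00% and 12.1% passed in the 3 comparisons.

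Of 10 genes that work with versican and hyaluronan, 4 passed in HGPS against 2-mo WT, Cemip included. Over all tested genes 9.50%, 2.00% and 12.1% passed in the 3 comparisons. Hapln1, the link protein that locks versican to hyaluronan, fell from 6.63 ± 0.549 to 3.57 ± 0.864 CPM (log2 fold change -0.88, adjusted p = 9.44e-05), and the hyaluronidase Hyal1 fell from 171 ± 9.20 to 103 ± 15.6 CPM (-0.73, adjusted p = 1.14e-06). The hyaluronan receptor Cd44 rose from 75.4 ± 6.69 to 118 ± 9.32 CPM (0.65, adjusted p = 4.92e-06). Cemip, which takes part in hyaluronan breakdown, had 0 to 2 counts per 2-mo WT mouse and 12 to 205 counts per HGPS mouse. It passed the filter only through the HGPS mice, so no weight is put on its call. A fold against so few counts is not given. At 24 mo Hapln1 rose to 19.8 ± 3.09 CPM (1.58, SE 0.14, adjusted p = 2.59e-07). In HGPS against 24-mo WT, Hapln1 fell by 2.46 on the log2 scale, while Cd44 (0.68) and Tnfaip6 (1.41), whose product modifies hyaluronan, rose. The medians of the 10 were -0.04, -0.04 and 0.25, Cemip included.

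**Figure D5:**
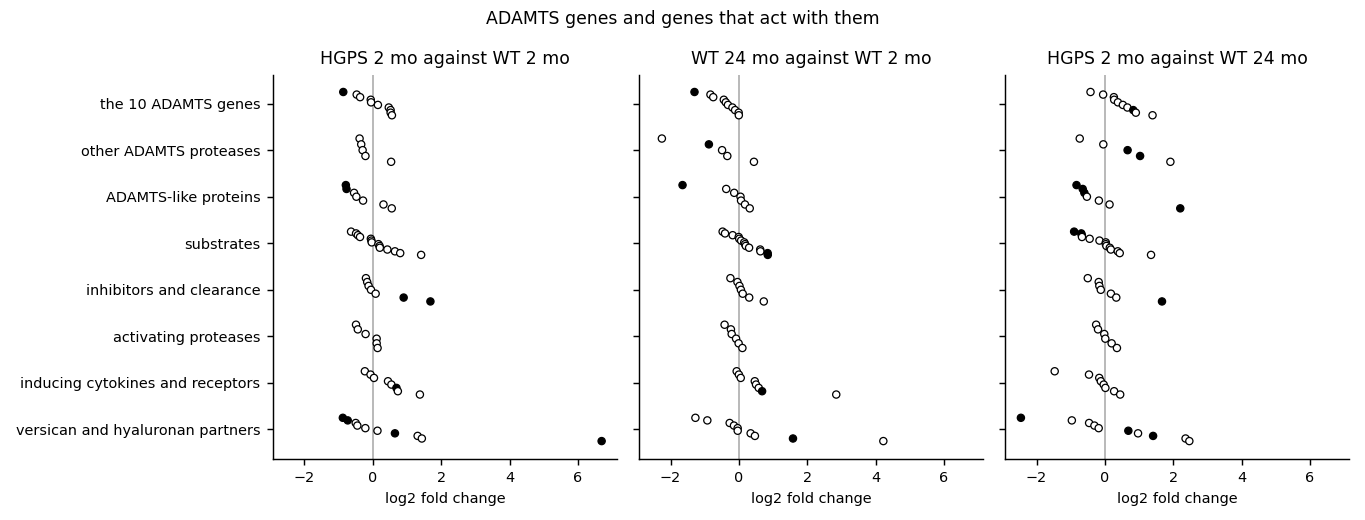
Log2 fold change (x) of each tested gene (points) of the 10 ADAMTS genes and of 7 lists of genes read beside them, in the 3 comparisons, with filled points past the cut-offs. The point far to the right in HGPS against 2-mo WT is Cemip, which passed the filter only through the HGPS mice. Its position depends on the near absence of counts in 2-mo WT. The filled point at 0.84 among the substrates at 24 mo marks Vcan and Fn1.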

How the data were processed

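The 18 aortas were grouped by their sample labels. The authors assigned paired reads of stranded, ribosomal RNA-depleted libraries to GENCODE M23 transcripts (GRCm38.p6) with salmon, and with tximport they made the estimated counts per gene that were deposited, as whole numbers. Gene names, lengths and sequences came from GENCODE M21 on the same assembly, in which 54107 of the identifiers were found. The members, gene lists and tests were chosen with earlier results of these data known.

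Counts of genes with at least 10 in at least 6 mice were fitted with edgeR 4.0.16 (R 4.3.3; TMM, quasi-likelihood, residual df 15), with Benjamini-Hochberg adjustment across all 15210 genes. The standard error is the log2 fold change over the root of the F statistic. Log2 CPM had a prior count of 2. The cut-offs are those of the study. Genes named were the 10, each list gene past the cut-offs, Vcan, Timp3, Lrp1, Lmna, and the 3 genes most correlated with Adamts15 and with Adamts12. Some genes were named outside this rule, after their values were seen. They are the 4 ADAMTS genes with too few counts to test and the genes under other observations. The substrates at an adjusted p under 0.05 in HGPS against 2-mo WT were named in the same way. Alternatives included DESeq2 1.42.0 and other filters, scalings, covariates and samples. The fits were tested on simulated data. No 2 mice of a group agreed within sampling noise (chi-square divided by df, 8.09 to 92.0 in the 45 pairs).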

Additional observations from a re-analysis of the deposited data

Results flagged for a closer look

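Of the 30 combinations of ADAMTS gene and group, 2 had a mouse whose gap to the nearest other mouse, as a share of the group's range, was above Dixon's 95% critical value for 6 mice. Chance alone flags about 1 in 20 such groups. Adamts9 was at 56.6 CPM in 24-mo WT replicate 5, above the other 5 mice by 0.665 of the range, and without this mouse Adamts9 passed the cut-offs in HGPS against 24-mo WT, as stated above. Adamts15 was at 153.7 CPM in 2-mo WT replicate 2, above the others by 0.641 of the range. The ranges of Adamts15 in HGPS and in 2-mo WT stay apart without it, since the other 5 2-mo WT mice had 90.9 CPM or more, and its call was kept as each mouse was left out.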

How the results depend on the processing

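The number of ADAMTS genes past the cut-offs was 1 of 10 in each comparison. It was 0 in each with glmTreat, edgeR's test against 1.5-fold itself (1, 1 and 3 at an unadjusted p under 0.05, for HGPS against 2-mo WT, 24-mo WT against 2-mo WT and HGPS against 24-mo WT), and 0 in each with either pair of marker scores as covariates in edgeR (5, 4 and 6 with brown fat and skeletal muscle, 2, 3 and 1 with smooth muscle and fibroblast). Of all genes, 1.83%, 0.723% and 2.69% passed with the first pair of scores and 0.00657%, 0.256% and 0.0329% with the second, so these losses are not particular to the ADAMTS genes. In edgeR it was 0 in both HGPS comparisons with mice of 1 run of sample numbers (3 and 5 at an unadjusted p under 0.05), which cannot be had for the WT ages, and 0 in both without the HGPS libraries highest in brown fat markers (3 in each at an unadjusted p under 0.05), an alternative chosen after seeing the data. DESeq2 gave 1, 2 and 2 (12.6%, 3.16% and 14.9% of all genes passed), and an adjusted p under 0.05 with no minimum fold gave 3, 3 and 5 (43.2%, 11.7% and 47.3%). The last 5 include Adamts16, which passed the filter only through the HGPS mice. The stricter cut-offs (0.8 and 0.0001) gave 1, 1 and 0. With each mouse left out it was 1 to 2, 1 to 2 and 0 to 2.

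Replicate numbers did not pair the mice (r of same-numbered deviations -0.16 to 0.17 over 18 pairs, 2 above 0.1, and 4 of 18 mice closest to their own number). With the replicate block the counts were 1, 1 and 0 (8 at an unadjusted p under 0.05 in the last, where Adamts12 had 0.83 with an adjusted p of 0.00185).

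Of 760 refits of single log2 fold changes, 689 kept direction and call, 20 lost a call and 14 gained one. For Adamts15 in HGPS against 2-mo WT, 5 of 26 refits lost the call. For Adamts12, 3 of 24 lost it in 24-mo against 2-mo WT and 12 of 26 in HGPS against 24-mo WT. Another 37 refits changed sign, none of a called gene. In HGPS against 2-mo WT, Adamts1 turned to 0.74 with brown fat and skeletal muscle scores, 0.91 with smooth muscle and fibroblast scores, 0.24 in 1 run and 0.14 without the libraries highest in brown fat markers. There Adamts4 turned to -0.39 (brown fat and skeletal muscle) and -0.20 (without those libraries), Adamts5 to 0.18 and Adamts10 to 0.28 (both with smooth muscle and fibroblast). In 24-mo against 2-mo WT the smooth muscle and fibroblast scores turned Adamts4 to 1.05, Adamts5 to 0.22, Adamts7 to 0.65, Adamts9 to 0.31 and Adamts16 to 0.32, upper-quartile factors turned Adamts5 to 0.0032 and Adamts9 to 0.0079, and brown fat and skeletal muscle scores turned Adamts9 to 0.0023. In HGPS against 24-mo WT, Adamts1 was -0.10 in 1 run, and Adamts4 was -1.02 with smooth muscle and fibroblast scores and -0.011 without the libraries highest in brown fat markers. Mouse by mouse, the changes of sign lay within -0.19 to 0.11 (Adamts1, HGPS against 2-mo WT), -0.094 to 0.046 (Adamts5) and -0.071 to 0.034 (Adamts9, both 24-mo against 2-mo WT) and -0.11 to 0.028 (Adamts5, HGPS against 24-mo WT). The cause of these changes was not tested. With the other length, 15 of 30 RPKM values moved by more than 1 SD. Depth limits Adamts16, Adamts7 and Adamts4, with 2 to 144 counts per mouse.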

Other observations

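The following values were picked after they were seen and belong to none of the comparisons. Adamts1 varied more than 2-fold inside each group, and the genes most like it over the 18 mice were Net1 (Pearson r = 0.96), a RhoA exchange factor, Zfp281 (r = 0.90), a transcription factor, and Nedd9 (r = 0.88), a focal adhesion scaffold. With each group centred on its mean these were 0.95, 0.93 and 0.92. Net1 had 262 to 599 CPM in 2-mo WT, 236 to 489 CPM in HGPS and 228 to 454 CPM in 24-mo WT, and its highest and lowest mice in each WT group were those of Adamts1. Adamts5 was most like Nfat5, the osmotic stress factor (r = 0.93, and 0.93 after centring), and Adamts10 most like Pxdn, peroxidasin (r = 0.91, and 0.85 after centring), with Col1a1 next (r = 0.88 and 0.78). Among the 45 pairs of ADAMTS genes, Adamts5 and Adamts10 had the highest r after centring (0.70). The r values across these genes are descriptions over libraries of 1 tissue.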
